A study of Mus musculus with 6 samples.

Results

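Genes of the neuromuscular synapse were described in tibialis anterior, a limb muscle, on arrays of control and MLC-SOCS-3 mice. The 10 genes are the 5 subunits of the muscle acetylcholine receptor (Chrna1, Chrnb1, Chrnd, Chrne and Chrng), the genes Musk, Lrp4, Dok7 and Rapsn of the pathway that clusters the receptor, and the transcription factor gene Etv5. They were chosen by name: every probe set whose only symbol in the platform annotation is 1 of these genes was taken. This gave 11 probe sets of 35557, since Etv5 has a pair of them, and 10 genes of 19938. The samples are 3 arrays of control muscle from C57Bl6J mice and 3 arrays of muscle from mice that carry the MLC-SOCS-3 transgene on the same background. SOCS-3 is an intracellular inhibitor of cytokine signalling. All mice were 11 weeks old and had been starved for 6 h, and 300 ng of total RNA went into each labelling. The labels do not say which promoter or fibre type drives the transgene. They do not say either whether the numbered replicates are separate animals, and the spread behind each p-value is that of these samples, whether biological or technical.

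At the neuromuscular synapse the motor nerve releases acetylcholine onto a small patch of the muscle fibre that is packed with receptors. The nerve also secretes agrin, which binds Lrp4 on the fibre. Lrp4 then activates the receptor kinase MuSK together with the adaptor Dok7, and rapsyn, the product of Rapsn, anchors the receptors in clusters. The nuclei under the synapse transcribe the receptor genes at a high rate, through ETS factors such as Etv5 and GABP that bind a motif called the N-box. Muscle bHLH factors such as MyoD and myogenin bind E-boxes in the same promoters. The receptor holds the gamma subunit (Chrng) before birth and after denervation, and the epsilon subunit (Chrne) in innervated adult muscle.

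The RefSeq promoter table (GRCm38.p6) holds 9 promoters for 7 of the 10 genes, each from 250 bases before to 50 bases after a transcript start. Chrnd, Rapsn and Lrp4 are not in it. The promoters of 1 shared subunit, the adult subunit and the fetal subunit are shown, because these subunits respond differently to the nerve. Each runs 5′ to 3′ and ends before the annotated gene, with N-box cores (CCGGAA, either strand) and E-boxes (CANNTG, the same on both strands) in capitals.
Chrna1, chr2:73580339-73580538, minus strand: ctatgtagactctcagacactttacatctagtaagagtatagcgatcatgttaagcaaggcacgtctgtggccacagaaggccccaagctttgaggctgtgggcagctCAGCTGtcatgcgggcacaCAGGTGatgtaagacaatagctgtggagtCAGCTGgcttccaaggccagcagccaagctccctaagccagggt
Chrne, chr11:70619214-70619394, minus strand: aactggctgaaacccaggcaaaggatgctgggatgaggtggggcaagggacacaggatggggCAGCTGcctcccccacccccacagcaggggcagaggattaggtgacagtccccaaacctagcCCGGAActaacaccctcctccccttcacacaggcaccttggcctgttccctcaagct
Chrng, chr1:87205611-87205810, plus strand: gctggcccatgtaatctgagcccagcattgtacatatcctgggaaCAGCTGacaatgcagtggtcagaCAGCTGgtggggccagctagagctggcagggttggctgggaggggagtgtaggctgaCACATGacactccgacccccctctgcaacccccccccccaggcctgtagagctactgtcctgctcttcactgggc
The Chrne promoter held the only N-box core among the 9 promoters, at position -76 from the start, and 1 E-box at -138. Chrna1 had 3 E-boxes, at -92, -73 and -44, and Chrng had 3, at -155, -132 and -75. E-boxes were found in 7 of the 9 promoters, and in 72.3% of all 32851 promoters of the same length. The N-box core was found in 14.9% of all promoters. No match overlapped another. A match is a run of letters and does not show that a factor binds there.

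No gene of the 10 passed the test between the labelled groups. Limma's adjusted p-values, taken over all probe sets, lay between 0.82 and 0.995. The rate over all 35557 probe sets was also 0%, with 2105 at an unadjusted p under 0.05. Without control replicate 2, limma called 1 probe set of the whole table, and none of these genes. Lower values on the arrays labelled MLC-SOCS-3 were measured for 7 of the 10 genes, against 56.2% of all genes. The groups did not overlap for 4 of them, Etv5, Musk, Rapsn and Chrng, each lower on the arrays labelled MLC-SOCS-3. Etv5 is counted by its brighter probe set. The count was 3 with its other probe set, and 3 with arrays centred on their medians, where Musk overlapped. Of all genes, 7.76% were lower without overlap. In the other direction there was none among the 10, against 4.52% of all genes. The median difference of the 10 genes was -0.083 on the log2 scale, and that of all genes was -0.016. Differences are given throughout as log2 intensity, MLC-SOCS-3 minus control.

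**Figure D1:**
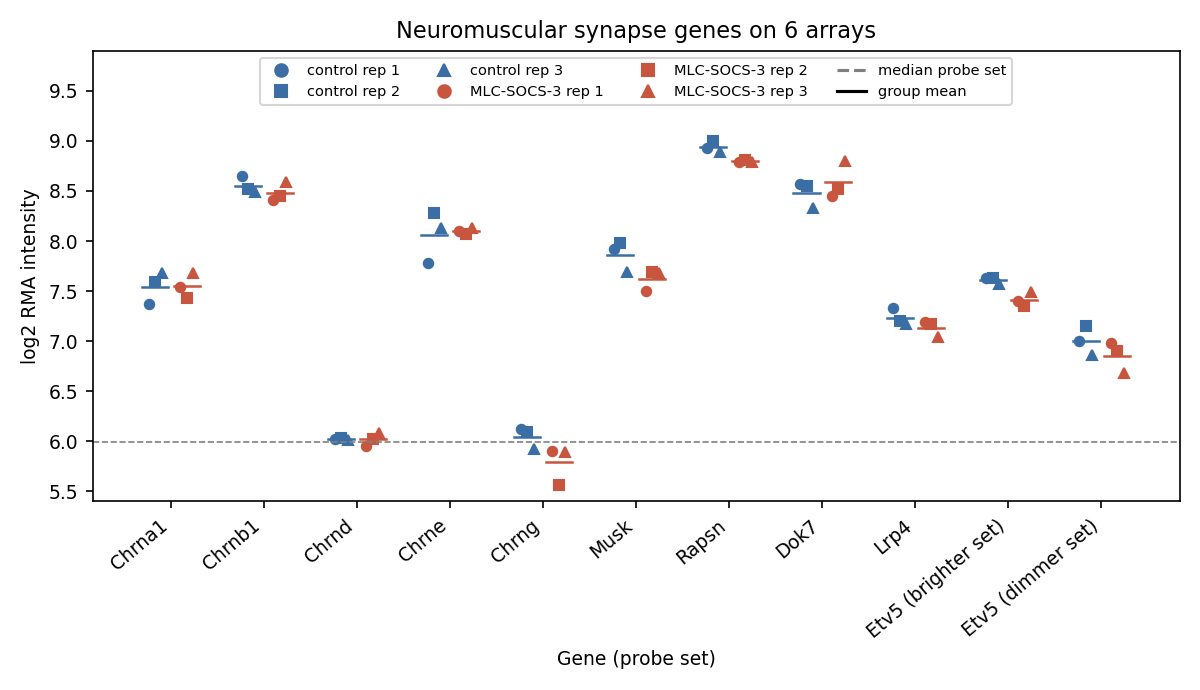
Log2 RMA intensity (vertical axis) of the 11 probe sets on each of the 6 arrays, with controls in blue, MLC-SOCS-3 in red, short bars for group means and a dashed line at the median probe set of all, 5.99. Both groups lie close together for each probe set, and Chrnd and Chrng lie near the dashed line. Heights of different probe sets cannot be compared.

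The labels were checked on the transgene's own gene. The brighter Socs3 probe set read 7.41 ± 0.03 (SD, n = 3) in controls and 7.15 ± 0.09 (SD, n = 3) in the group labelled MLC-SOCS-3, and the dimmer one 6.37 ± 0.12 and 6.14 ± 0.02. Both were lower without overlap and did not pass the test, with differences of -0.26 and -0.22 (limma, unadjusted p = 0.011 and 0.030, adjusted p = 0.80 and 0.82), which goes against the label. Whether its probes lie in the transgene is not given in the sources used here, so every direction is that of the arrays as labelled. Markers of the labelled tissue were present: all 11 fast skeletal muscle markers lay above the median probe set, and their mean was between 14.10 and 14.15 on the 6 arrays. Array medians ran from 5.98 to 6.04. In whole muscle, fewer cells of a type and less RNA per cell cannot be told apart.

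The genes of the shared and adult receptor subunits lay at nearly the same intensity in both groups. Chrna1, which encodes the alpha subunit that binds acetylcholine, read 7.37, 7.59 and 7.68 in controls and 7.54, 7.43 and 7.68 on the arrays labelled MLC-SOCS-3. The ranges overlapped almost fully, and the lowest value belonged to control replicate 1. The difference was 0.0064 ± 0.11 (SE), with a 95% interval of 0.831 to 1.21 as a fold (limma, adjusted p = 0.99). Without control replicate 1 it was -0.08 and without MLC-SOCS-3 replicate 3 it was -0.06.

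Chrnb1, the beta subunit gene, read 8.65, 8.52 and 8.49 in controls and 8.41, 8.45 and 8.59 on the arrays labelled MLC-SOCS-3. MLC-SOCS-3 replicates 1 and 2 lay below every control and replicate 3 above all but control replicate 1. The difference was -0.07 ± 0.08 (SE), an interval of 0.831 to 1.09 as a fold (limma, adjusted p = 0.91). It was -0.020 without control replicate 1 and -0.12 without MLC-SOCS-3 replicate 3. Chrnd, the delta subunit gene, read 6.03, 6.03 and 6.01 in controls and 5.96, 6.02 and 6.08 on the arrays labelled MLC-SOCS-3. Chrnd thus differed by -0.0033 ± 0.06 (SE), and the sign turned when arrays were centred on their medians (0.016) or quantile normalized (0.016). Its probe set lay at the median of all probe sets, 6.02 against 5.99, where RMA compresses folds.

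Chrne, the gene of the adult epsilon subunit, read 7.78, 8.28 and 8.13 in controls and 8.10, 8.07 and 8.13 on the arrays labelled MLC-SOCS-3. The controls spread over 0.50, while the other group spread over 0.06 and lay wholly inside the control range. The difference was 0.04 ± 0.13 (SE), with an interval of 0.821 to 1.29 as a fold (limma, adjusted p = 0.98). Control replicate 1 set the sign: without it the difference was -0.10. The mean of Chrna1, Chrnb1, Chrnd and Chrne per array was 7.46, 7.60 and 7.58 in controls and 7.50, 7.49 and 7.62 on the arrays labelled MLC-SOCS-3, so both groups held high and low arrays.

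Chrng, the gene of the fetal gamma subunit, had the largest difference among the 10 genes as deposited, while that of Musk was larger after quantile normalization, and also when MLC-SOCS-3 replicate 2 or control replicate 3 was left out. Chrng read 6.12, 6.09 and 5.92 in controls and 5.90, 5.57 and 5.90 on the arrays labelled MLC-SOCS-3. The groups did not overlap, but the gap between them was 0.022, and MLC-SOCS-3 replicate 2 lay far below the rest. The difference was -0.26 ± 0.12 (SE), with an interval of 0.686 to 1.02 as a fold (limma, unadjusted p = 0.070, adjusted p = 0.83). Without MLC-SOCS-3 replicate 2 it was -0.15. The probe set lay just below the median probe set on average, at 5.92, so its level was not clearly apart from dim probe sets.

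Musk, the gene of the receptor kinase at the centre of the pathway, read 7.92, 7.98 and 7.70 in controls and 7.50, 7.69 and 7.68 on the arrays labelled MLC-SOCS-3. Control replicates 1 and 2 were high and MLC-SOCS-3 replicate 1 low, while control replicate 3 exceeded the next MLC-SOCS-3 array by 0.0066. With arrays centred on their medians the groups overlapped. The difference was -0.24 ± 0.10 (SE), with an interval of 0.711 to 1.01 as a fold (limma, unadjusted p = 0.056, adjusted p = 0.83).

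Rapsn, whose product rapsyn binds the receptors and holds them in clusters, read 8.93, 9.001 and 8.89 in controls and 8.79, 8.81 and 8.79 on the arrays labelled MLC-SOCS-3. The MLC-SOCS-3 arrays lay within 0.025 of one another, and the gap between the groups was 0.080. The difference was -0.15 ± 0.06 (SE), with an interval of 0.814 to 1.005 as a fold (limma, unadjusted p = 0.058, adjusted p = 0.83). Rapsn thus had a small difference with little spread, and it did not pass the test.

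The other genes of the clustering pathway overlapped between the groups. Lrp4, the agrin receptor gene, read 7.33, 7.20 and 7.17 in controls and 7.19, 7.17 and 7.04 on the arrays labelled MLC-SOCS-3. The difference was -0.10 ± 0.08 (SE), and the groups overlapped by 0.022 (limma, adjusted p = 0.87). It was -0.05 without control replicate 1 and -0.049 without MLC-SOCS-3 replicate 3. Dok7, the gene of the adaptor that activates MuSK inside the fibre, read 8.57, 8.55 and 8.33 in controls and 8.45, 8.52 and 8.79 on the arrays labelled MLC-SOCS-3. Dok7 was at 0.11 ± 0.12 (SE; limma, adjusted p = 0.91), the highest of the 10 as deposited. The sign rests mainly on MLC-SOCS-3 replicate 3, the highest array, and control replicate 3, the lowest. Leaving out each array in turn moved the Dok7 difference between 0.0024 and 0.17.

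**Figure D2:**
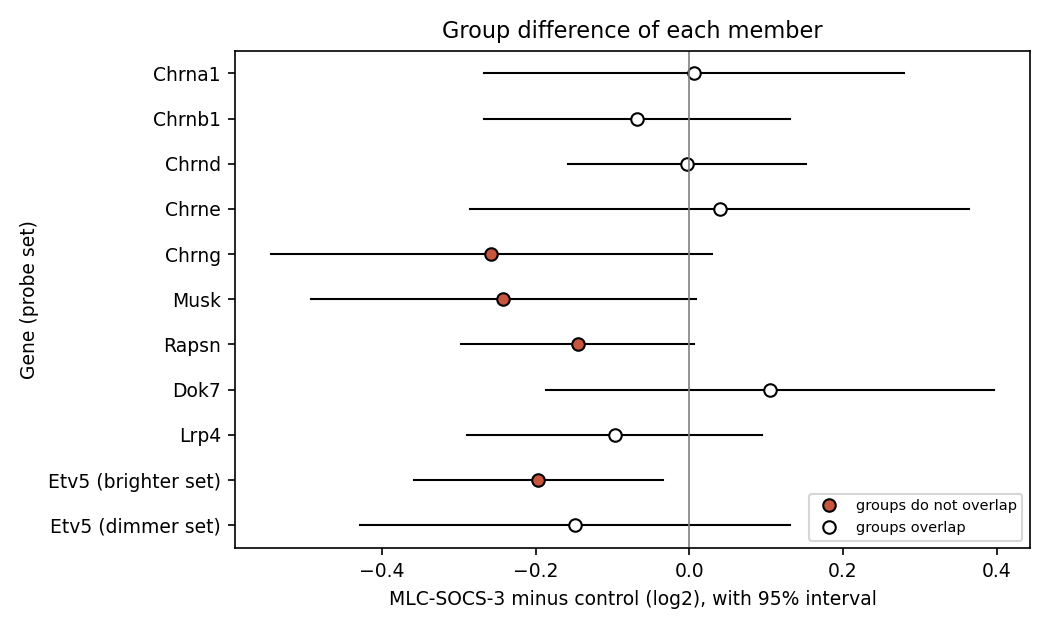
Difference of each probe set, MLC-SOCS-3 minus control in log2 units (horizontal axis), with its 95% interval from limma, and red points where the values of the groups do not overlap. The interval includes 0 for every probe set except the brighter Etv5 set, from -0.36 to -0.03.

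Etv5, an ETS factor of the nuclei under the synapse, had the smallest p of the 10 genes with all 6 arrays, by its brighter probe set. Its brighter probe set read 7.63, 7.63 and 7.58 in controls and 7.41, 7.35 and 7.49 on the arrays labelled MLC-SOCS-3. The groups did not overlap, and the gap was 0.088. The difference was -0.20 ± 0.07 (SE), with an interval of 0.780 to 0.977 as a fold (limma, unadjusted p = 0.025, adjusted p = 0.82). Etv5 was the only one of the 10 genes with an unadjusted p under 0.05, against 4.86% of all genes, and only by this brighter set.

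The dimmer Etv5 probe set read 7.004, 7.15 and 6.86 in controls and 6.98, 6.90 and 6.68 on the arrays labelled MLC-SOCS-3. Here the groups overlapped, and the difference was -0.15 ± 0.11 (SE; limma, unadjusted p = 0.24, adjusted p = 0.87). The array order differed between the sets too, since MLC-SOCS-3 replicate 3 was the lowest array for the dimmer set and the highest of its group for the brighter one. Etv5 lies on chromosome 16, as did all 10 named neighbours of the dimmer set by probe set number. All 10 named neighbours of the brighter set lie on chromosome 10. Probe sets next to each other in number name genes of the same chromosome in 94.3% of cases. Whether the brighter set reads transcripts of another locus was not tested. With the dimmer set in its place, 3 of the 10 genes were lower without overlap.

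The Etv5 values were set beside those of the closely related factors Etv4 and Etv1, which belong to the same ETS subfamily. Etv4 read 6.61, 6.42 and 6.48 in controls and 6.23, 6.39 and 6.36 on the arrays labelled MLC-SOCS-3. The groups did not overlap, and the difference was -0.18 ± 0.08 (SE; limma, adjusted p = 0.83). The brighter Etv1 probe set was at -0.22 ± 0.11 with overlapping groups, and the dimmer one at 0.025 ± 0.17. None of the 3 factors passed the test.

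**Figure D3:**
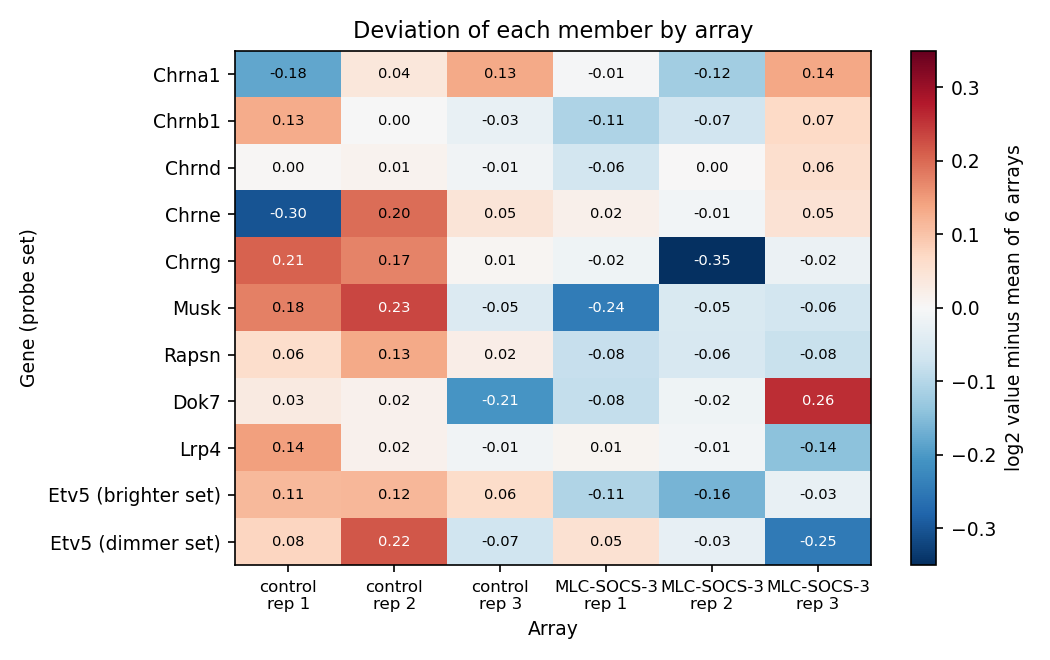
Each probe set's log2 value minus its mean over the 6 arrays (colour, with the number in each cell), with probe sets in rows and arrays in columns. Control replicate 2 has the highest value for 4 of the 10 genes, and MLC-SOCS-3 replicate 1 the lowest for 4. Control replicate 1 and MLC-SOCS-3 replicate 3 each have the highest for 3. The brighter Etv5 set represents its gene.

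Across arrays the 10 genes did not move as 1 block. On MLC-SOCS-3 replicates 1 and 2, 8 and 9 of the 10 genes lay below their own mean over the 6 arrays. On MLC-SOCS-3 replicate 3 the number was 5, the same as on control replicate 3, and on control replicates 1 and 2 it was 2 and 1. The median deviation of the 10 genes was 0.09, 0.08 and -0.0031 on control replicates 1 to 3 and -0.07, -0.06 and 0.015 on MLC-SOCS-3 replicates 1 to 3. The median deviation of all genes on those arrays lay between -0.020 and 0.029.

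Marker lists of other cells are given beside these values. No marker of any list passed limma's test, and no list was tested. Of 9 Schwann cell and nerve markers analysed here, 8 were negative, and the list's mean intensity ran from 6.46 to 6.50 on the arrays labelled MLC-SOCS-3 and from 6.52 to 6.58 in controls. Of the 9, S100b, Mag, Ncmap and Egr2 lay below the median probe set. All 8 slow fibre markers were negative, with list means from 7.57 to 7.72 against 7.67 to 7.92 in controls. Satellite cell markers were split, 3 positive and 3 negative, with means from 7.28 to 7.33 against 7.21 to 7.38. Tendon markers were negative for 5 of 6, with means from 7.80 to 7.84 against 7.89 to 8.09. Fibroblast markers were positive for 7 of 7, with a median of 0.16. Their means ran from 10.258 to 10.57 against 10.20 to 10.261, an overlap through MLC-SOCS-3 replicate 1. Macrophage markers were positive for 8 of 9, with a median of 0.10 and overlapping means of 6.999 to 7.37 against 6.81 to 7.21. Endothelial markers were positive for 2 of 5 (8.61 to 8.74 against 8.63 to 8.80) and blood markers for 2 of 4 (5.54 to 5.67 against 5.61 to 5.71). Adipocyte markers were positive for 5 of 5, with means from 5.78 to 5.96 against 5.53 to 5.62. Without overlap, 2 slow fibre and 2 tendon markers were lower, and 2 fibroblast and 2 adipocyte markers higher. Each other list given here had at most 1 such marker in either direction. Of all genes, 7.76% were lower without overlap and 4.52% higher. The part of these cells in the values of the 10 genes was not tested.

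Other genes of the synapse were described by list, with counts and medians and no test of the list. Some genes, such as Etv4 and Myog, are in several of these lists, so the lists are not separate sets. In none of the 6 lists did a gene rise or fall after adjustment over all probe sets. Of the 12 nerve signals and basal lamina genes, 4 were positive and 8 negative, with a median of -0.038. Agrn, which encodes agrin, was at -0.09 ± 0.08 (SE). Nid2 and Lama5, basement membrane genes, were at 0.14 ± 0.09 and 0.07 ± 0.08. The groups overlapped for all 12 genes. Of 22 measured MuSK partners and scaffold genes of 24 listed, 10 were positive and 12 negative, with a median of -0.0072. The neuregulin receptor gene Erbb4 was at 0.17 ± 0.10 (SE), below the median probe set. Without overlap, 1 of the 22 genes was higher, Erbb4, and 1 was lower, Dvl1, at -0.040 ± 0.06. Dvl1 was named after its values were seen. Of all genes, 4.52% were higher without overlap and 7.76% lower. The adaptor gene Crk, whose product binds Dok7, was at -0.11 ± 0.08, and the chaperone gene Dnaja3, whose product binds MuSK, at 0.09 ± 0.06.

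Of the 14 regulators of receptor transcription, 5 were positive and 9 negative, with a median of -0.013. That median was -0.07 without control replicate 2 and -0.06 without MLC-SOCS-3 replicate 2. Etv4, the corepressor gene Ctbp1 and the deacetylase gene Hdac5, 3 of the 14, were lower without overlap and none was higher. Of all genes, 7.76% were lower without overlap and 4.52% higher. Ctbp1 and Hdac5 were named after their values were seen. Myod1, a bHLH factor that binds E-boxes, read 9.46, 9.02 and 9.21 in controls and 8.47, 9.06 and 8.72 on the arrays labelled MLC-SOCS-3. Myod1 was at -0.48 ± 0.18 (SE; limma, unadjusted p = 0.037, adjusted p = 0.82), and the groups overlapped through MLC-SOCS-3 replicate 2. It was the only gene of this list with an unadjusted p under 0.05, where 3.50% of all genes were lower at that level and 1.36% higher. Gabpa, which encodes the GABP subunit that binds the N-box, was at -0.0076 ± 0.07, and Myog, the myogenin gene, at -0.017 ± 0.16. Both were named after their values were seen.

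Of 12 measured denervation-induced genes of 14 listed, 7 were positive and 5 negative, with a median of 0.0080. Gadd45a, a stress gene that rises on denervation, was at 0.27 ± 0.14 (SE). The developmental myosin genes Myh3 and Myh8 were at -0.14 ± 0.09 and 0.08 ± 0.07. The groups overlapped for all 12. Chrng, itself a denervation-induced gene, was at -0.26 beside a list with a median near 0, and at -0.15 without MLC-SOCS-3 replicate 2. Of 11 measured genes enriched in nuclei under the synapse, of 12 listed, 4 were positive and 7 negative, with a median of -0.040. Lrtm1 was at 0.29 ± 0.18, with MLC-SOCS-3 replicate 2 at 10.81 and the other arrays between 9.96 and 10.33. Col25a1, a collagen gene, was at -0.10 ± 0.07 without overlap. With Etv4, which is also among the regulators above, 2 of the 11 were lower without overlap and none was higher. Of all genes, 7.76% were lower without overlap and 4.52% were higher.

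Neuronal nicotinic subunits and muscarinic receptors, 16 genes, were negative for 14 and positive for 2, with a median of -0.12. Only 2 of the 16 lay above the median probe set. The muscarinic receptor gene Chrm1 was at -0.21 ± 0.08 (SE; limma, unadjusted p = 0.041, adjusted p = 0.83), without overlap. Chrm1 was the only gene of this list with an unadjusted p under 0.05. At that level 3.50% of all genes were lower and 1.36% higher. The nicotinic subunit gene Chrna10 was at -0.33 ± 0.15 and the muscarinic gene Chrm3 at -0.21 ± 0.10. Without overlap, 2 of the 16 were lower and 1 higher, against 7.76% and 4.52% of all genes. The higher gene was the nicotinic subunit gene Chrna2, at 0.22 ± 0.12, named after its values were seen. The list mean was between 5.11 and 5.23 on the arrays labelled MLC-SOCS-3 and between 5.27 and 5.29 in controls. Most of these probe sets are dim, and without MLC-SOCS-3 replicate 2 the list median was -0.07.

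**Figure D4:**
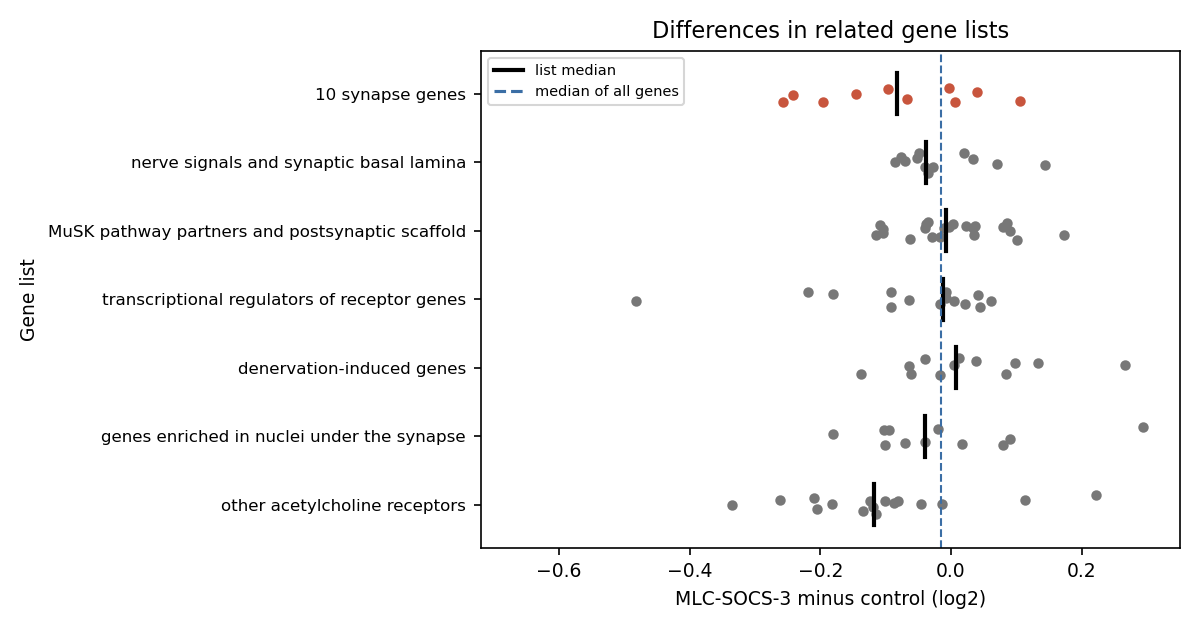
Difference, MLC-SOCS-3 minus control in log2 units (horizontal axis), of each gene (points, spread vertically at random for sight) in the 10 synapse genes and 6 related lists, with black bars for list medians and a dashed line for the median of all genes, -0.016. As deposited, the medians run from -0.12 for other acetylcholine receptors to 0.0080 for denervation-induced genes.

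The genes whose pattern over the 6 arrays was most like that of the adult receptor subunits were sought among 11400 genes above the median level, by the root mean square difference of centred log2 values. Gmeb2, Pmm2 and Cdipt were closest to the mean of Chrna1, Chrnb1, Chrnd and Chrne, at 0.015, 0.016 and 0.024, where the median gene was at 0.11. Closest to the brighter Etv5 set were Fam53b, Psmb10 and Asl, at 0.019, 0.021 and 0.024, where the median gene was at 0.14. With 6 arrays and this many genes, close matches are found for any pattern, so these are a description.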

How the data were processed

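Gene expression was measured with 1 Affymetrix array per sample, 6 in all. The authors deposited log2 intensities. Per the submitters' processing notes they were made by RMA, with Affymetrix Expression Console and no version named. RMA corrects background, gives arrays a common distribution and summarises a probe set into 1 value, which compresses folds of dim probe sets. Values were used as deposited. The number of arrays limits the precision, and no detection calls or depth are given.

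Probe sets were named from the platform annotation, with symbols updated through Entrez identifiers to GRCm38.p6. A gene is represented by its probe set with the highest mean. Groups were compared by limma's moderated test (version 3.58.1, R 4.3.3, two-sided) on all 35557 probe sets, with Benjamini-Hochberg adjustment and a threshold of 0.05. The script was tested on simulated data. Any pair of arrays shared at most 36 identical values. The genes and lists were chosen with earlier results of these data known. By rule, the 10 genes, up to 3 genes per synapse list by smallest p, and the 3 closest patterns were named. Alternatives were median centring, quantile normalization, only bright or only listed probe sets, trended robust moderation, a replicate block, the other Etv5 probe set, and leaving out each array.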

Additional observations from a re-analysis of the deposited data

How the results depend on the processing

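None of the 10 genes was called by limma in any of the alternatives tried, where adjusted p-values of the 120 member results were at least 0.68. Of those 120, 7 had the opposite sign to the value reported, all of Chrna1, Chrnd or Chrne. Chrnd was at 0.016 with arrays centred on their medians and at 0.016 after quantile normalization. When each array was left out in turn, Chrna1 ranged from -0.083 to 0.074, Chrnd from -0.033 to 0.028 Chrne from -0.10 to 0.15, Chrnb1 from -0.12 to -0.020, Chrng from -0.32 to -0.15 and Lrp4 from -0.13 to -0.049, and the number of probe sets called was 0 to 1. The other 7 genes kept their sign throughout, Chrng on 1 alternative fewer because it lies below the median level. The count of genes lower without overlap was 3 with median centring, only bright probe sets or the other Etv5 set. It was 4 after quantile normalization. With an array left out it was 4 or 5, but groups that do not overlap cannot come to overlap that way. The count of negative differences was 6 to 9. The alternatives for both counts were chosen after seeing the data. List medians with an array left out ranged from -0.046 to 0.045 for denervation-induced genes, -0.023 to 0.018 for MuSK partners, -0.054 to 0.019 for nerve signals and basal lamina, -0.074 to -0.0058 for transcriptional regulators, -0.14 to -0.065 for other acetylcholine receptors and -0.077 to -0.026 for genes of nuclei under the synapse. The replicate block gave 0 called probe sets, as did the fit without it. The deviations of same-numbered arrays correlated at -0.043 to -0.018, and no array correlated best with its own number. Deviations within a group of 3 are tied to one another, so whether same-numbered samples shared a day or litter cannot be told from them. For Chrnd and Chrng, near the median probe set, low signal over background limits what the arrays can show.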
